A study of Homo sapiens with 4 samples.

Results

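Inflammasome components and the genes that control interleukin-1 were followed in THP-1, an established human line grown from an acute monocytic leukaemia. The genes were chosen by symbol as NLRP3, NLRC4, NLRP12, PYCARD, CASP1, CASP4, GSDMD, IL18, IL1RN and TXNIP. Of these 10 genes, 9 were among the 27106 genes of the deposited table and GSDMD was not analysed here. Total RNA was sequenced on day 5 from cells treated with 1 of 2 antisense oligonucleotides, which are synthetic strands designed to bind a chosen transcript and reduce it. The knockdown group (2 libraries) received one aimed at SGOL1-AS1, a long noncoding RNA, and the other group (2 libraries) a non-targeting one. All 4 libraries came from this line with an oligonucleotide given, and none from cells without one is used here.

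Inflammasomes are cytosolic complexes of innate immune cells. A sensor such as NLRP3 recruits the adaptor ASC, encoded by PYCARD, which gathers caspase-1 into an active form. Caspase-1 then matures interleukin-1 beta and interleukin-18 and cuts gasdermin D, whose pores release the cytokines and can kill the cell. IL1RN encodes the secreted antagonist that occupies the interleukin-1 receptor without signalling, and intracellular forms of it also exist. Most of this machinery is set off by changes in protein and not in RNA, and the values here are RNA levels only.

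Reads assigned to genes numbered 48558537 and 41435922 in the knockdown libraries and 50855150 and 51851314 in the non-targeting libraries, and every value is a normalized count, the reads divided by 1 size factor per library. The table names the knockdown columns by a code without a key, and they were assigned by elimination, so every direction rests on that assignment. They are called knockdown libraries 1 and 2 in column order. Separate cultures are not mentioned in the labels, so each p-value rests on these samples alone, and their spread may be technical. The SE, interval and p-value that limma gives a gene borrow variance from other genes of like level. They can thus be narrower than the gene's own libraries would give. SGO1-AS1 (the current symbol of the target; chromosome 3, 20174244 to 21145967) had 12 and 17 reads in the knockdown and 24 and 21 in the non-targeting libraries. Its log2 fold change was -0.48 ± 0.37 (SE; limma, adjusted p = 0.555), so its loss was not detectable at this depth and it does not check the labels. It stood at -0.13 without knockdown library 1 and -0.84 without library 2. SGO1-AS1 shares 10.3% of its exonic length with SGO1, which is read from the opposite strand. Whether counting used strand is not given in the sources used here. Of 19398 tested genes, limma called 660 lower and 165 higher in the knockdown at an adjusted p under 0.05. The split was 650 and 290 with the same median in every library, 334 and 142 after quantile normalization, 293 and 235 at equal totals, and 694 and 290 after a GC correction. It was 334 and 87 without non-targeting library 1. All 14 listed monocytic markers were measured, with LYZ at 39733 and 40116 in the knockdown and 37332 and 36975 in the non-targeting libraries. The list held low genes too. CD14 was at 105 and 94.7 in the knockdown and 110 and 104 in the non-targeting libraries. CD68 was at 16.3 and 16 in the knockdown and 17.3 and 21.6 in the non-targeting libraries. Limma called 3 of the 14 lower (CD4, TYROBP and CEBPB, by 0.35, 0.24 and 0.27 on the log2 scale), against 3.4% of all tested genes. CEBPB passed narrowly (limma, adjusted p = 0.0484). EdgeR called 2 of the 14 lower (2.87% of all tested genes) and DESeq2 1 (1.95%). The log2 fold change was below 0 in 12 of the 14, against 52.5% of all tested genes, LYZ being 1 of the others. Both knockdown values lay below both non-targeting values in 7, against 25.1% of all tested genes. The median was -0.14, against -0.01 over all tested genes. Among lymphocyte markers CD79A did not exceed 66.2 in any library. The B-lineage factor PAX5 stood at 2786 and 3455 in the knockdown and 4666 and 4624 in the non-targeting libraries. PAX5 was called lower, with a log2 fold change of -0.58 (limma, adjusted p = 2.4e-05).

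PYCARD and IL1RN were the genes that fell, and their promoters are shown for that reason. The sequences are RefSeq windows (GRCh38.p14) from 250 bases before to 50 bases after an annotated start, and 7 of the 9 genes had at least 1. Each was searched on both strands for AP-1 (TGANTCA), an interferon-response type element (GAAA, any 2 bases, GAAA), GAS (TTCNNNGAA), the E-box CACGTG and the NF-kB site by its name. Capitals mark a match.
PYCARD, chr16:31202711-31203010, minus strand: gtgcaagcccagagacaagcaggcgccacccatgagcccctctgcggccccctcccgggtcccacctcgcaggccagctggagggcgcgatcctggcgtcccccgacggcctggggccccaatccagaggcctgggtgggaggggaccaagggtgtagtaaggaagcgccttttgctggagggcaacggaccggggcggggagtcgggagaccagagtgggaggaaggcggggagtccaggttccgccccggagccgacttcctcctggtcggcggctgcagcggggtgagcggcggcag
IL1RN, chr2:113117721-113118020, plus strand: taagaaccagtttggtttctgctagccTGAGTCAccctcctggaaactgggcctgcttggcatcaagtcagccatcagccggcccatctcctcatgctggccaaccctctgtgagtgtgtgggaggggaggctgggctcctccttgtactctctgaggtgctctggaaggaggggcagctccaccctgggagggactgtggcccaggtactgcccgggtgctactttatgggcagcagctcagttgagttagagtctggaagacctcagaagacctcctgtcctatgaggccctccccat
IL1RN, chr2:113127239-113127538, plus strand: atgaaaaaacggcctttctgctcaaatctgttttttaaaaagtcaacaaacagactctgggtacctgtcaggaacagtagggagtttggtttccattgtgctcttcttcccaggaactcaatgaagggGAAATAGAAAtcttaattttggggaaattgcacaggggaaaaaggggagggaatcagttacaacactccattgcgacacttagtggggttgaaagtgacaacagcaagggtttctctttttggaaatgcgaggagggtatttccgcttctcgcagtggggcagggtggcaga
The PYCARD window is 72% G and C and held none of these letters. The upstream IL1RN window held an AP-1 match that starts 223 bases before the annotated start, and 7.72% of 34943 promoter windows hold one. The downstream IL1RN window held an interferon-response type match that starts 122 bases before the start, and 3.57% of windows hold one. No match overlapped another, and another annotated start of IL1RN shares the second match. Windows of NLRP3, NLRC4, NLRP12, CASP4 and TXNIP held none of the 5 motifs. Matches to GAS, the E-box and the NF-kB site occur in 7.66%, 7.23% and 11.3% of all windows. A link between a match and a fall was not tested. The counts are per gene, so reads from the different IL1RN starts are summed.

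Among the 9 genes the adaptor PYCARD and the antagonist IL1RN fell, and no gene rose. Limma called 2 of 9 lower and 0 higher, where 3.4% of all tested genes were called lower and 0.851% higher. At an unadjusted p under 0.05 limma had 3 of 9 lower and 0 higher, where 11% of all tested genes were lower and 6.17% higher. EdgeR also called 2 of 9 lower and 0 higher (2.87% and 0.82% of all tested genes), as did DESeq2 (1.95% and 0.34%). Without knockdown library 2 limma called 4 of 9 lower (4.7% of all tested genes, and 1.59% higher), and after the GC correction 3 of 9 (3.58%, and 1.49% higher). In 5 of 9 genes (PYCARD, IL1RN, TXNIP, NLRC4 and NLRP3) both knockdown values lay below both non-targeting values, where 25.1% of all tested genes did so. The log2 fold change was below 0 in 8 of 9, against 52.5% of all tested genes. Its median over the 9 was -0.13, against -0.01 over all tested genes. It stood at -0.01 without knockdown library 1. The monocytic markers had a median of -0.14, and their part in the values of the 9 genes was not tested. In bulk RNA, fewer expressing cells and less RNA per cell cannot be told apart.

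**Figure D1:**
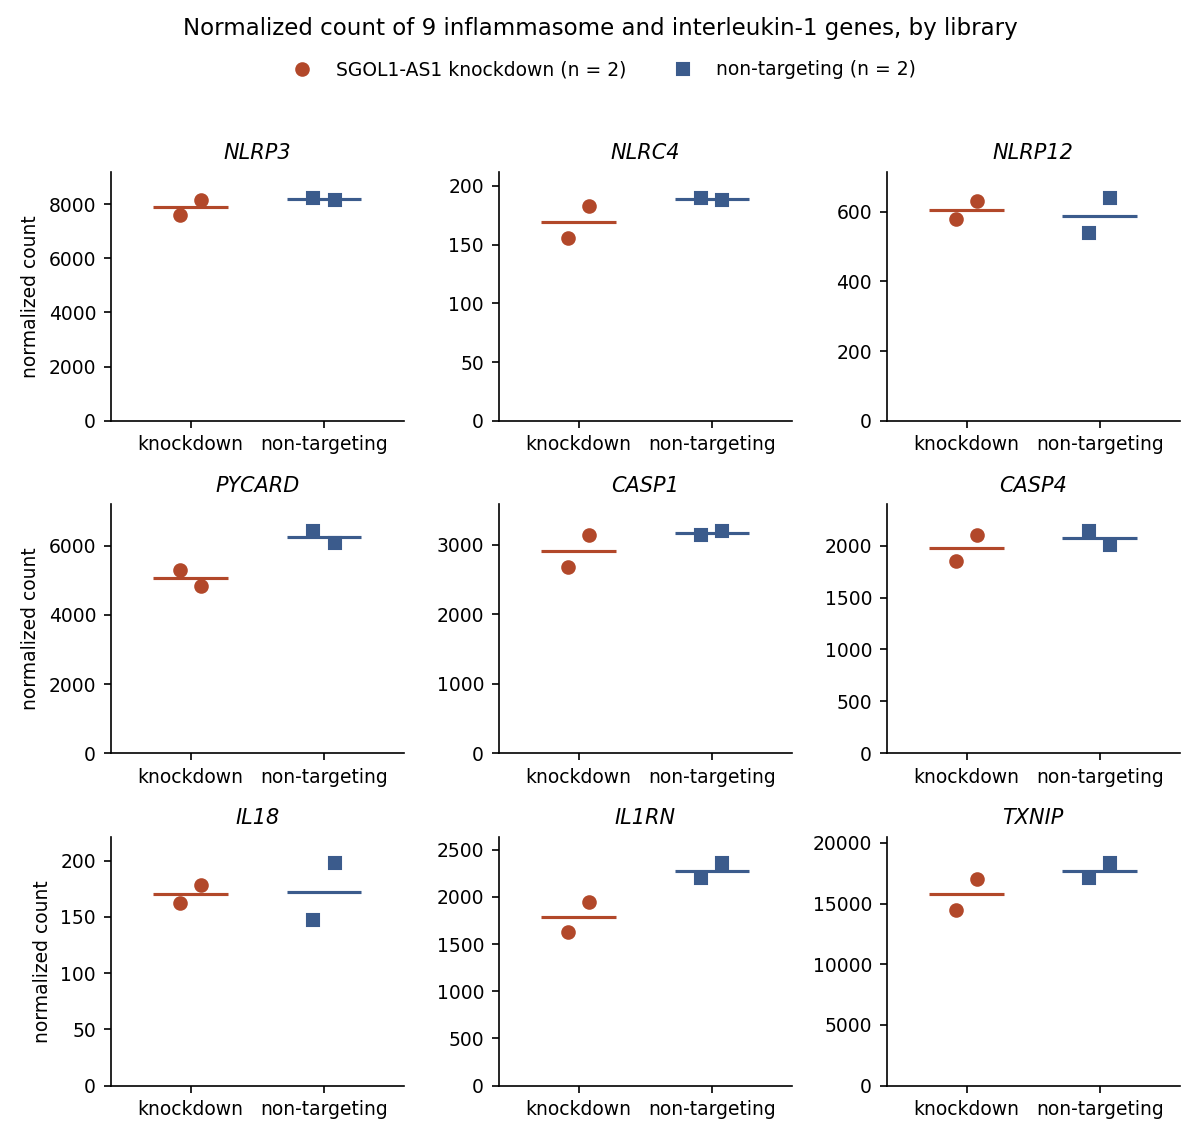
Normalized count of each gene in the 2 knockdown (circles) and 2 non-targeting (squares) libraries, with a bar at each group's mean and every axis starting at 0. PYCARD and IL1RN show a gap between the groups, from 5301 to 6072 and from 1945 to 2195, while the points of CASP4, IL18 and NLRP12 overlap.

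PYCARD encodes ASC, the adaptor shared by pyrin-domain sensors (ENSG00000103490; chromosome 16, 31201485 to 31203450, minus strand). It had 5301 and 4821 normalized counts in the knockdown libraries, against 6427 and 6072 in the non-targeting libraries. The groups did not overlap, and knockdown library 2 was the lowest of the 4. The mean was 5061 ± 340 in the knockdown and 6250 ± 251 in the non-targeting group (SD, n = 2 each). This is a log2 fold change of -0.31 ± 0.06 (SE), and the geometric mean fell by 19.1% (limma, adjusted p = 0.002). PYCARD shares 59.7% of its exonic length with PYCARD-AS1, which is read from the opposite strand, and whether counting used strand is not given in the sources used here. PYCARD-AS1, named after its values were seen, was at 189 and 187 in the knockdown and 208 and 189 in the non-targeting libraries, with a log2 fold change of -0.08 (limma, adjusted p = 0.821). Its ratio to PYCARD was 0.0356 and 0.0388 in the knockdown and 0.0324 and 0.0311 in the non-targeting libraries. PYCARD is described here for its fall, so the higher ratio in each knockdown library restates that fall and is no separate result. The PYCARD transcript is 61.7% G and C, more than 91.3% of tested genes. Across 18925 tested genes the fold change fell with GC content (Spearman's rho = -0.25, a description over genes that share the 4 libraries). With each library corrected for GC content PYCARD stood at -0.21 and was still called (limma, adjusted p = 0.00284). Over the 16 alternatives its log2 fold change ran from -0.37 to -0.21 and its adjusted p from 2.9e-07 to 0.36. The call ended in 1 of these, limma with no mean-variance trend, which called 0 of all genes.

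IL1RN, the interleukin-1 receptor antagonist (ENSG00000136689; chromosome 2, 113107214 to 113134016, plus strand), showed the largest fall of the 9 in this fit. It had 1623 and 1945 normalized counts in the knockdown libraries, against 2195 and 2356 in the non-targeting libraries. All 4 values were apart by group, with knockdown library 1 the lowest. The mean was 1784 ± 228 in the knockdown and 2276 ± 113 in the non-targeting group (SD, n = 2 each). The log2 fold change was -0.36 ± 0.07 (SE), and the geometric mean fell by 21.9% (limma, adjusted p = 0.00519). It was -0.23 without knockdown library 1 (limma, adjusted p = 0.0385), and ended as a call with no mean-variance trend (0.408), in a range over the alternatives of 5.74e-09 to 0.408. IL1RN holds no exonic base of another gene in GENCODE 29. Its antagonist role is set against the agonist IL1B, named after its values were seen. IL1B stood at 74.8 and 90.1 in the knockdown and 99.9 and 146 in the non-targeting libraries, and its log2 fold change of -0.55 ± 0.19 missed the threshold (limma, adjusted p = 0.119). The IL1RN to IL1B ratio of normalized counts was 21.7 and 21.6 in the knockdown libraries, against 22 and 16.2 in the non-targeting libraries. The ratios overlapped, and their difference did not exceed the spread between libraries (exact permutation test, two-sided, p = 1; the smallest p for 2 against 2 libraries is 0.333). IL1B rested on 78 to 155 reads a library, with a counting interval of 16.1% to 22.9% either side.

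None of the 3 sensors passed the threshold, and their intervals differed in width. NLRP3, which responds to potassium loss and membrane damage (chromosome 1, 247416156 to 247449108, plus strand), had 7601 and 8148 normalized counts in the knockdown and 8207 and 8158 in the non-targeting libraries. Against the non-targeting mean, knockdown library 1 stood at -0.11 and library 2 at -0.0061 on the log2 scale. The log2 fold change was -0.06 with a 95% interval of -0.16 to 0.05 (limma, adjusted p = 0.638), and it turned to 0.0012 after quantile normalization and 0.00102 at equal totals. NLRC4, which answers bacterial flagellin and secretion needles through NAIP (chromosome 2, 32224453 to 32265854, minus strand), had 155 and 182 in the knockdown and 189 and 188 in the non-targeting libraries. With 160 to 200 reads a library its interval was wide, at -0.16 with -0.45 to 0.12 (limma, adjusted p = 0.599). It stood at -0.05 without knockdown library 1 and -0.28 without library 2. NLRP12, a pyrin-domain relative of NLRP3 found in myeloid cells (chromosome 19, 53793603 to 53824394, minus strand), had 578 and 632 in the knockdown and 538 and 638 in the non-targeting libraries. Its values overlapped, at 0.05 with an interval of -0.15 to 0.24 (limma, adjusted p = 0.862), and the sign turned without knockdown library 2 (-0.02) or non-targeting library 1 (-0.08).

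**Figure D2:**
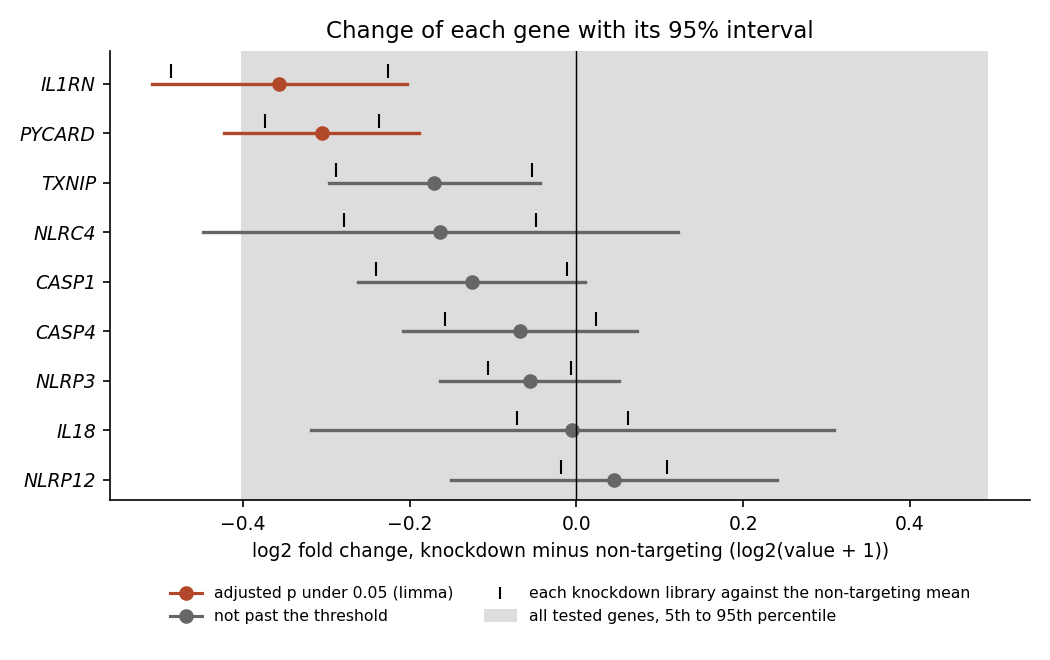
Log2 fold change of each gene (knockdown minus non-targeting, log2(value + 1)) with its 95% limma interval, and ticks for each knockdown library against the non-targeting mean. The intervals of IL1RN, PYCARD and TXNIP lie below 0, those of PYCARD and IL1RN being past the threshold after adjustment, and the grey band spans the 5th to 95th percentile of all tested genes (-0.40 to 0.49).

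The inflammatory caspases and IL18 did not pass the threshold. CASP1, which cuts the cytokine precursors (chromosome 11, 105025443 to 105035250, minus strand), had 2682 and 3145 normalized counts in the knockdown and 3141 and 3198 in the non-targeting libraries. Only knockdown library 1 stood below, at -0.24 against the non-targeting mean on the log2 scale, while library 2 was at -0.01. The log2 fold change was -0.13 with an interval of -0.26 to 0.01 (limma, adjusted p = 0.338). Without knockdown library 2 CASP1 was called lower (-0.24, limma, adjusted p = 0.0108), and without library 1 it stood at -0.01 (0.966). CARD16, a neighbour that resembles the CARD of CASP1 closely enough that reads may be split between them, was named after its values were seen. It was at 474 and 504 in the knockdown and 518 and 490 in the non-targeting libraries (log2 fold change -0.04, limma, adjusted p = 0.865). CASP4, the receptor of bacterial lipopolysaccharide in the cytosol (chromosome 11, 104942866 to 104969436, minus strand), had 1856 and 2104 in the knockdown and 2142 and 2002 in the non-targeting libraries. Its log2 fold change was -0.07 with an interval of -0.21 to 0.07 (limma, adjusted p = 0.675), and 0.02 without knockdown library 1. IL18, the cytokine matured by caspase-1 (chromosome 11, 112143251 to 112164117, minus strand), had 162 and 178 in the knockdown and 147 and 198 in the non-targeting libraries. The non-targeting libraries lay on either side of the knockdown, and the log2 fold change was -0.0049 with an interval of -0.32 to 0.31 (limma, adjusted p = 0.991). IL18BP, the decoy that binds interleukin-18, was at 565 and 498 in the knockdown and 500.3 and 411 in the non-targeting libraries (log2 fold change 0.23, limma, adjusted p = 0.261).

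TXNIP, an arrestin-like protein that binds thioredoxin and has been reported to bind NLRP3 (chromosome 1, 145992435 to 145996600, minus strand), was the most abundant of the 9. It had 14486 and 17045 normalized counts in the knockdown and 17074 and 18315 in the non-targeting libraries. Knockdown library 1 stood apart, and library 2 lay just under non-targeting library 1. The log2 fold change was -0.17 ± 0.06 (SE), with an interval of -0.30 to -0.04 that leaves out 0 before adjustment, and it did not pass over all genes (limma, adjusted p = 0.128). The value was -0.29 without knockdown library 2, which was past the threshold (limma, adjusted p = 1.98e-05), and -0.05 without knockdown library 1 (0.713). It also passed after correction for GC content (-0.19, limma, adjusted p = 0.0248).

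The 2 knockdown libraries differed from each other in most of these genes. Knockdown library 1 was below library 2 in 8 of 9, where 52.4% of all tested genes were, and PYCARD was the exception. The median of the 9 against the non-targeting mean was -0.24 in knockdown library 1 and -0.01 in library 2, and -0.01 and 0.01 in non-targeting libraries 1 and 2. Over all tested genes the same median was -0.01 in library 1 and -0.0021 in library 2. GC content moved with the difference between the knockdown libraries and with that between the non-targeting libraries (Spearman's rho = 0.25 each over 18925 genes), and its part in the 9 genes' library difference was not tested.

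Levels of different genes were set side by side per kilobase of merged exonic length, which joins the exons of all annotated transcripts of a gene. The order of the 9 genes was the same in 4 of 4 libraries, and it depends on these lengths. IL1RN and CASP4 had mean normalized counts of 2030 and 2026, at lengths of 3.256 and 7.256 kilobases. TXNIP came first at 4615 normalized counts per kilobase over all libraries, followed by PYCARD at 3405 and NLRP3 at 1688. CASP1 followed at 823 and IL1RN at 623, then CASP4 at 279 and NLRP12 at 117. IL18 at 65.1 and NLRC4 at 49.3 came last. The range of each gene over the 4 libraries lay clear of that of the next. The closest ranges were those of CASP1, whose lowest library stood at 725 per kilobase, and IL1RN, whose highest stood at 724. For IL18 and NLRC4, which had the fewest reads, the 95% counting intervals overlapped in non-targeting library 1 (47.4 to 65.5 and 45.2 to 60 per kilobase). The adaptor thus exceeded the sensor NLRP3 in each library, by this annotation and with the overlap of PYCARD-AS1 left as counted.

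**Figure D3:**
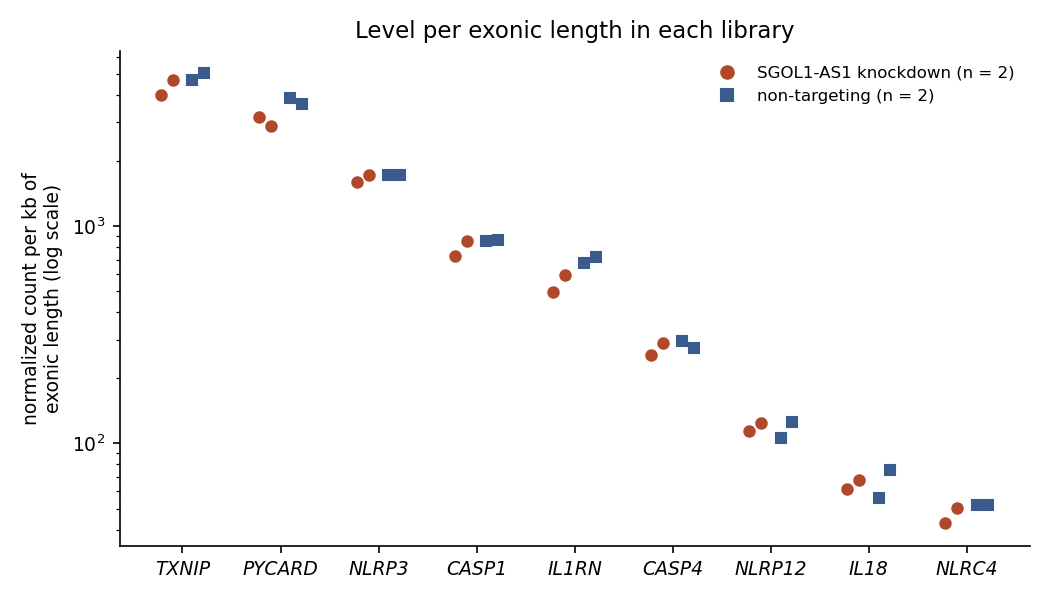
Normalized count per kilobase of exonic length on a log axis, for each gene in each knockdown (circles) and non-targeting (squares) library, ordered by mean. The levels span from 4615 (TXNIP) to 49.3 (NLRC4) per kilobase, and the symbols of neighbouring genes do not mix.

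Ratios within a library do not depend on the size factors. PYCARD to NLRP3 was 0.697 and 0.592 in the knockdown and 0.783 and 0.744 in the non-targeting libraries. IL1RN to NLRP3 was 0.213 and 0.239 in the knockdown and 0.267 and 0.289 in the non-targeting libraries. Both ratios were lower in each knockdown library, as was that of NLRC4 (0.0204 and 0.0224 in the knockdown, 0.0231 and 0.0231 in the non-targeting libraries), and the other 5 overlapped between groups. Set against NLRP3 in the same way, 13.9% of all other tested genes lay lower in each knockdown library. The exact two-sided permutation p was 0.333 for these 3 ratios, the smallest that 2 against 2 libraries can give. PYCARD and IL1RN were already described as falling, so their lower ratios to NLRP3 restate those falls and are no separate result. The ratio of IL1RN to PYCARD overlapped, at 0.306 and 0.403 in the knockdown and 0.342 and 0.388 in the non-targeting libraries.

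**Figure D4:**
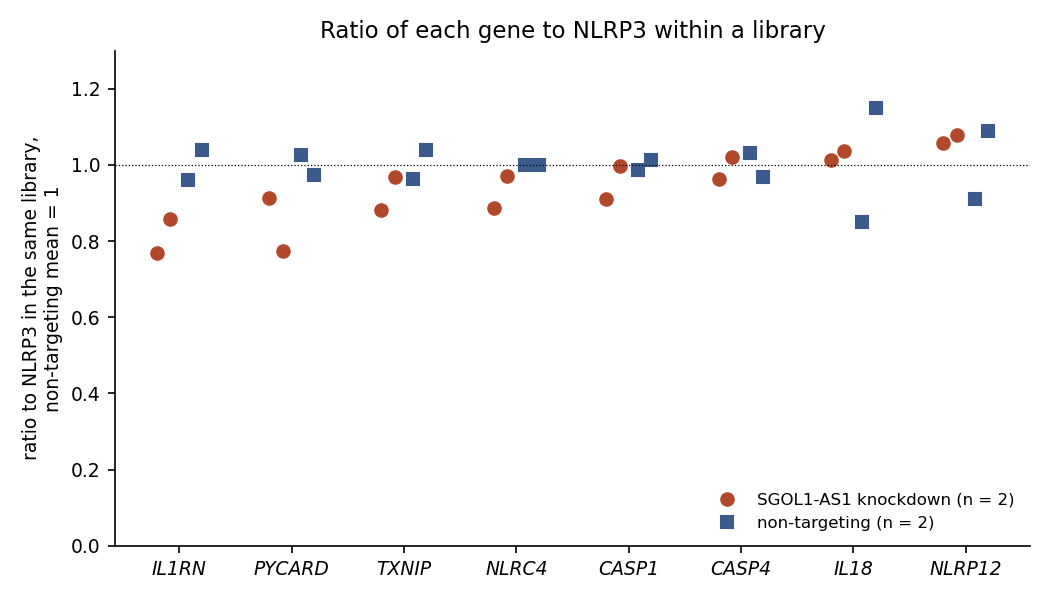
Ratio of each gene to NLRP3 in the same library, scaled to a non-targeting mean of 1, in knockdown (circles) and non-targeting (squares) libraries, with the axis starting at 0. IL1RN and PYCARD lie below the non-targeting points in each knockdown library, and CASP4, IL18 and NLRP12 mix with them.

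Around these genes, 8 of 102 tested genes on 7 pathway lists fell and 0 rose (limma, where 3.4% and 0.851% of all tested genes did). EdgeR called 8 lower and 0 higher (2.87% and 0.82% of all tested genes), and DESeq2 5 lower and 0 higher (1.95% and 0.34%). At an unadjusted p under 0.05 limma had 22 lower and 3 higher, where 11% and 6.17% of all tested genes were. The count of called genes depended on which library was left out. The median log2 fold change of the 102 was -0.066, and it ran from -0.066 to -0.056 with 1 library left out. Of 13 other sensors and NOD-like receptors 2 fell by limma and edgeR and 1 by DESeq2, and the list's median was -0.17. NOD2, a receptor of bacterial muramyl dipeptide, had 475 and 504 normalized counts in the knockdown and 730 and 766 in the non-targeting libraries. Its 2 groups lay far apart for their spread, with a log2 fold change of -0.61 ± 0.09 (SE; limma, adjusted p = 0.000121). IFI16, a sensor of DNA, had 4075 and 5184 in the knockdown and 6172 and 6351 in the non-targeting libraries, a log2 fold change of -0.45 ± 0.07 (limma, adjusted p = 0.000636). The IFI16 call ended by DESeq2 (-0.43, adjusted p = 0.179), with robust empirical Bayes (-0.45, 0.208) and with no trend (-0.45, 0.399), and the value was -0.27 without knockdown library 1. CARD8 and NLRC5, the most abundant of this list, stood at 0.06 and -0.08 and did not pass. AIM2, the DNA sensor that also uses ASC, was named after its values were seen and was at 434 and 422 in the knockdown and 416 and 523 in the non-targeting libraries (log2 fold change -0.12, limma, adjusted p = 0.608).

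Of 22 genes that license or restrain NLRP3, 3 fell by limma and edgeR and 1 by DESeq2, with a list median of -0.01. DESeq2 did not call GBP5 (adjusted p = 0.0917) or EIF2AK2 (0.495), and robust empirical Bayes did not call EIF2AK2 (0.173). PANX1, a channel that releases ATP, had 1776 and 1834 normalized counts in the knockdown and 2158 and 2155 in the non-targeting libraries (log2 fold change -0.26, limma, adjusted p = 0.0156). The GTPase GBP5 was at 1334 and 1562 in the knockdown and 1732 and 1769 in the non-targeting libraries (-0.28, limma, adjusted p = 0.028), and the kinase EIF2AK2, known as PKR, at 23689 and 27801 in the knockdown and 28935 and 31902 in the non-targeting libraries (-0.24, limma, adjusted p = 0.0247). The chaperones HSP90AB1 and HSP90AA1, the most abundant, stood at -0.04 and 0.05. P2RX7, the ATP-gated channel upstream of NLRP3, was named after its values were seen and had 442 and 543 in the knockdown and 563 and 661 in the non-targeting libraries, which did not pass (-0.32, limma, adjusted p = 0.0935). NEK7, the kinase that NLRP3 needs, was likewise at -0.11 (limma, adjusted p = 0.324).

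The list of further caspases, CARD proteins and dipeptidases had 12 tested genes, with a median log2 fold change of -0.08. The proteases DPP9 and DPP8, which restrain the sensors NLRP1 and CARD8, stood at -0.08 and -0.01. Of 15 genes for pores and membrane rupture 1 fell, the GTPase GBP4, at 1168 and 1451 in the knockdown and 1695 and 1988 in the non-targeting libraries (-0.50, limma, adjusted p = 0.00116). GBP4 has close paralogs, and its call ended with robust empirical Bayes (0.0616), in a range over the alternatives up to 0.394. CTSG, CHMP4B and CHMP3, the most abundant there, stood between -0.09 and -0.07. Of 7 tested interleukin-1 family ligands, receptors and decoys 0 passed by limma, edgeR or DESeq2, with 1 lower (IL1B) and 1 higher (IL18BP) at an unadjusted p under 0.05. IL1RAP, the shared receptor chain, and SIGIRR, a restraining receptor, stood at -0.11 and -0.04. Of 17 genes of receptor signalling 1 fell, the adaptor MYD88, at 3527 and 3958 in the knockdown and 4423 and 4807 in the non-targeting libraries (-0.30, limma, adjusted p = 0.00449). IRAK1, IRAK3 and MAP3K7 stood at -0.03, 0.08 and -0.01. Of 17 genes of the thioredoxin and TXNIP axis 0 passed by limma, edgeR or DESeq2, with 1 lower at an unadjusted p under 0.05. TXN, the partner of TXNIP, was at 0.04, TXNRD1 at 0.05 and SLC2A1 at -0.10. Some of these calls ended with 1 library left out. PANX1 kept its log2 fold change of -0.26 without non-targeting library 1 (limma, adjusted p = 0.137) or 2 (0.108) but was no longer called. GBP5 stood at -0.16 without knockdown library 1 (limma, adjusted p = 0.237), and at -0.29 and -0.26 without non-targeting library 1 (0.0816) and 2 (0.12). EIF2AK2 stood at -0.13 without knockdown library 1 (limma, adjusted p = 0.169) and at -0.17 without non-targeting library 2 (0.279). Over all 16 alternatives their highest adjusted p was 0.345 for PANX1, 0.438 for GBP5 and 0.502 for EIF2AK2. MYD88 was not called without non-targeting library 2 (-0.24, limma, adjusted p = 0.082) or with no trend (0.396).

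**Figure D5:**
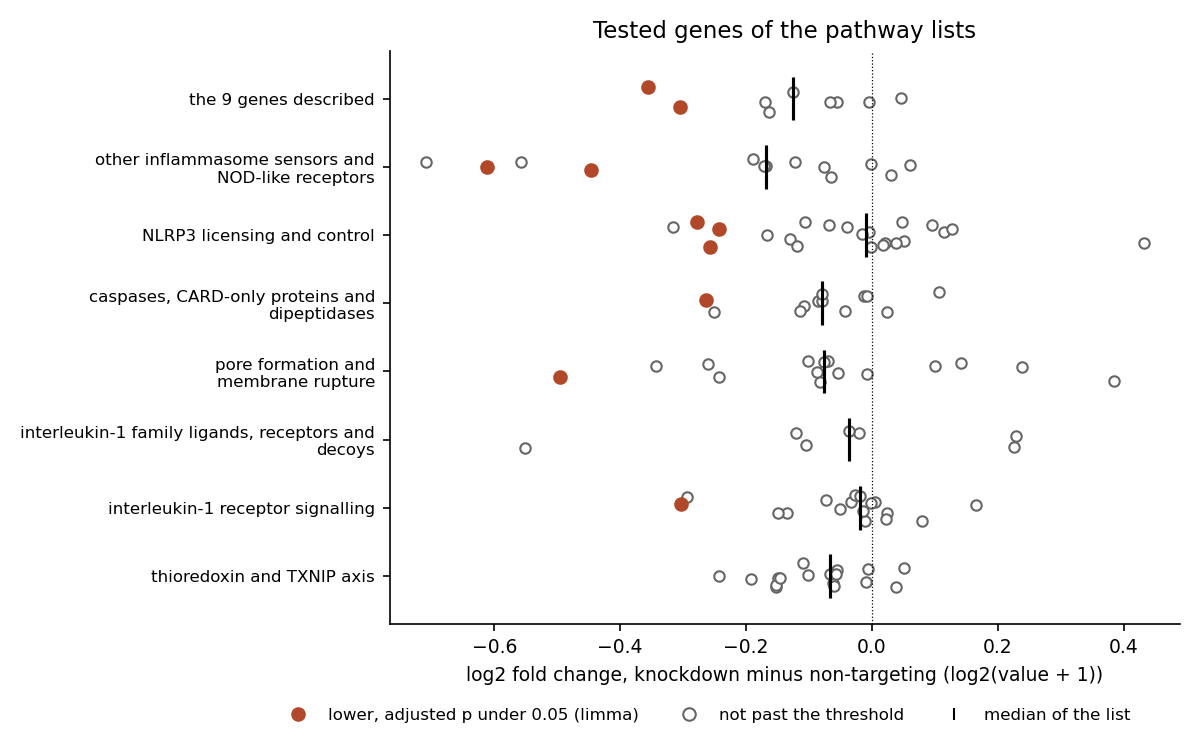
Log2 fold change (knockdown minus non-targeting, log2(value + 1)) of every tested gene on each list, with filled points for genes called lower by limma and a bar at the list's median. The filled points lie between -0.61 (NOD2) and -0.24 (EIF2AK2), and no gene right of 0 is filled.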

How the data were processed

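RNA extraction used a Qiagen RNeasy Plus Mini kit and library preparation NEBNext Ultra II, per the labels' protocols. Per the submitters' processing notes, STAR 2.5.1b, DESeq2 and GRCh38 were used, in roles the notes as given here do not state. For the annotation, counter and strand setting the sources used here give nothing. The authors deposited a normalized signal, which is whole read counts over 1 size factor per library (100% of values within 0.001 of a whole read). Because every gene has at least 2 reads in knockdown library 1, genes absent there are not analysed here. Symbols matched 26579 identifiers. Positions and exonic lengths come from GENCODE 29 on GRCh38.

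The test was limma 3.58.1 (R 4.3.3) on log2(value + 1), a scale that understates the change of low genes. It used empirical Bayes with a trend on the mean, kept the 19398 genes whose mean reached 10, and called genes at a Benjamini-Hochberg adjusted p under 0.05. All 9 genes passed the filter on low values. Alternatives were filters, pseudocounts, scalings, empirical Bayes settings, each library left out, and edgeR 4.0.16 (quasi-likelihood) or DESeq2 1.42.0 run on the reads recovered from the table. A GC correction in 20 bins of the longest transcript was chosen after seeing the data. Read intervals are exact Poisson (95%) and cover counting error only. The genes and lists were chosen with earlier results of these data known. The text names the 10 genes, SGO1-AS1, the called genes of the lists and the 3 most abundant of each, and 1 result that this rule takes is not reported here. Other genes, the markers and NEK7 included, were named after their values were seen.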

Additional observations from a re-analysis of the deposited data

How the results depend on the processing

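Over 16 alternatives the falls of PYCARD and IL1RN kept their direction, and their calls ended only with no mean-variance trend (-0.31, adjusted p = 0.36, and -0.36, adjusted p = 0.408), where limma called 0 genes higher, 0 lower, 0 of the 9 and 0 of the pathway genes, with 2337 of all genes at an unadjusted p under 0.05. TXNIP became a call after GC correction (-0.19) and without knockdown library 2, and CASP1 without knockdown library 2. With 1 library left out, values ran from -0.49 to -0.23 for IL1RN, -0.37 to -0.24 for PYCARD, -0.29 to -0.053 for TXNIP, -0.24 to -0.011 for CASP1, -0.16 to 0.023 for CASP4, -0.22 to 0.21 for IL18, -0.28 to -0.048 for NLRC4, -0.84 to -0.13 for SGO1-AS1 and -0.077 to 0.17 for NLRP12, with the lone sample taken to vary like the other group. IL18 reversed with the same median (0.012) and the same total (0.052), and NLRP3 after quantile normalization (0.0012) and at equal totals (0.00102). The same settings gave 290 (same median) and 290 (GC correction) genes higher, 334 (quantile) and 293 (same total) lower, and DESeq2 379 lower and 66 higher. With 1 library left out the counts ran from 334 (without non-targeting library 1) to 960 (without knockdown library 1) lower and from 87 (without non-targeting library 1) to 309 (without knockdown library 2) higher, from 2 to 4 of the 9 genes lower and from 3 to 16 pathway genes lower. With robust empirical Bayes 5 of 102 pathway genes were called lower, where 774 of 19398 tested genes were. DESeq2 also called 5 (379 of all tested genes). The number was 4 after quantile normalization (334 of all tested genes) and 4 with equal totals (293). The median of the 9 ran from -0.24 to -0.011 with 1 library left out. That of the pathway genes was -0.038 after GC correction, -0.035 after quantile normalization and -0.0084 with equal totals. These settings moved the median of all tested genes up by 0.0123, 0.0202 and 0.0572, in that order. The same median in every library moved it up by 0.0170. The cause of the differences between settings, beyond these shifts, was not tested. Depth limited NLRC4, IL18 and IL1B, at 78 to 210 reads a library, and SGO1-AS1, which the minimum mean of 50 and DESeq2's filter left without a value. No paired analysis was possible because the knockdown columns carry replicate numbers that differ from the labels and share fewer than 2 with the non-targeting columns.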
